A study of Mus musculus with 24 samples.

Results

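The genes described here are those of the proteasome, the protease that degrades proteins tagged with ubiquitin, in the mouse cochlea. Genes were taken as members if the only symbol of a probe set began with Psma, Psmb, Psmc, Psmd or Psme followed by a number, and the brightest probe set, by mean log2 signal over all arrays, stood for its gene. This gave 44 of the 18194 genes that had a probe set with a single symbol. Of these, 42 encode proteasome subunits, activators or assembly chaperones, and Psmc3ip, which encodes the meiotic recombination factor HOP2, and Psme3ip1, which encodes the PA28 gamma-interacting protein PIP30, entered by their symbols alone. The 42 were 37 constitutive members, the 3 immunoproteasome subunits, the testis-specific Psma8 and the thymus-specific Psmb11. The members held 91 probe sets, and 23 members had more than 1. The PA28 beta gene Psme2 was not analysed here because its probe set carries several symbols.

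The barrel-shaped 20S core of the proteasome is built of alpha rings, which gate the entrance, and beta rings, of which the subunits encoded by Psmb5, Psmb6 and Psmb7 cut peptide bonds, and the 19S cap binds ubiquitin, unfolds the substrate and feeds it into the core. In immune cells, and in other cells exposed to interferon, the catalytic subunits encoded by Psmb8, Psmb9 and Psmb10 take the places of Psmb5, Psmb6 and Psmb7 in newly made particles, called immunoproteasomes, which favour peptides for MHC class I. The activators PA28 and PA200 bind the core in place of the 19S cap.

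Total RNA of whole cochleae was measured on 24 arrays, 3 for α9−/− and 3 for wild type mice at each of P3 and P7, before hearing, P13, at its onset, and P60, in mature animals. The α9−/− mice lack a nicotinic acetylcholine receptor subunit that outer hair cells need to respond to their inhibitory efferent input, and lack it in every cell of the body, and both genotypes were of a 129S6 x CBA/CaJ background bred to CBA/CaJ for at least 7 generations. Each array carried 1 pool, which the design description gives as 3 to 5 mice and the methods as numbers of cochleae that change with age, so p-values measure the spread between pools. Chrna9, the deleted gene, gave log2 signals of 3.24 to 6.33 over its 3 probe sets in all arrays with no call at 4 ages, and no source used here places its probes inside or outside the deleted part. Control probes for Gapdh had a signal at the 3′ end over 4 log2 units above that at the 5′ end in 5 arrays: α9−/− replicate 2 and wild type replicate 1 of P3, wild type replicate 1 and replicate 2 of P13, and wild type replicate 1 of P60. The difference in the other arrays lay between -0.15 and 2.43. Where leaving these 5 arrays out changed the call of a member, this is stated. The value without them is given too, except for 2 wild type calls between P7 and P13. Sensory hair cell genes had a mean log2 signal of 5.94 to 6.70 per array over 4 of 6 listed genes. The array medians of the deposited values were 6.49 to 6.89. The stria vascularis genes had a mean of 8.20 to 10.49 over 5.

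The start regions of the genes on which the results turn are shown first, to set the immunoproteasome genes that rose with age beside their constitutive counterparts and the activator gene that differed at P13. Each runs 5′ to 3′ from 250 bases before to 50 bases after the annotated start, from RefSeq on GRCm38.p6. The regions are chr17:34197945-34198244 (plus strand) for Psmb8, chr17:34187281-34187580 (minus strand) for Psmb9, chr14:54617946-54618245 (minus strand) for Psmb5, chr11:70525107-70525406 (plus strand) for Psmb6 and chr14:55578244-55578543 (plus strand) for Psme1. Capitals mark matches on either strand to the interferon-stimulated response element core (GAAA, any 2 bases, GAAA), the gamma-activated site TTCNNNGAA, the antioxidant response element core TGACNNNGC, the CCAAT box and the GC box GGGCGG, none of which overlap here.
Psmb8: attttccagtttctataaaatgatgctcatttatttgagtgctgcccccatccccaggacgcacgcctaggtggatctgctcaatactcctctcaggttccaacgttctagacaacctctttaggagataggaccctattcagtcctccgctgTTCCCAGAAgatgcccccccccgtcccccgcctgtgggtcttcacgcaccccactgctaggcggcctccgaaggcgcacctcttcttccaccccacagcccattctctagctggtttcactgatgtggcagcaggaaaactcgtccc
Psmb9: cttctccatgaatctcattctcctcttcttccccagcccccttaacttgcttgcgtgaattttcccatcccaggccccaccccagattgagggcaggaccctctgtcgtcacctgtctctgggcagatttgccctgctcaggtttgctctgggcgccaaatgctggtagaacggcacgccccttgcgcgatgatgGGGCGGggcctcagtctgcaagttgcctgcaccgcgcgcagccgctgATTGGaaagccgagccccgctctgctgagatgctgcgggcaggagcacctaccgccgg
Psmb5: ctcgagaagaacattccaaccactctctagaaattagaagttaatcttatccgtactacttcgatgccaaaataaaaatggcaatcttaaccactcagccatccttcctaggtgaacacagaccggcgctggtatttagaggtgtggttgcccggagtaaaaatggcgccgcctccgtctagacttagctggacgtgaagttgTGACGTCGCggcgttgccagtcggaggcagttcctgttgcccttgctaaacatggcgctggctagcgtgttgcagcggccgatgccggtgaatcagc
Psmb6: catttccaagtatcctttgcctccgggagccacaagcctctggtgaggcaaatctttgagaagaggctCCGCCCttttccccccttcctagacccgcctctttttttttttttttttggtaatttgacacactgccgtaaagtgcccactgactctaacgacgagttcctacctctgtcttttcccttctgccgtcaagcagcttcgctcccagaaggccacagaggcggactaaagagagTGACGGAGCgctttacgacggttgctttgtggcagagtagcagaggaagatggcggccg
Psme1: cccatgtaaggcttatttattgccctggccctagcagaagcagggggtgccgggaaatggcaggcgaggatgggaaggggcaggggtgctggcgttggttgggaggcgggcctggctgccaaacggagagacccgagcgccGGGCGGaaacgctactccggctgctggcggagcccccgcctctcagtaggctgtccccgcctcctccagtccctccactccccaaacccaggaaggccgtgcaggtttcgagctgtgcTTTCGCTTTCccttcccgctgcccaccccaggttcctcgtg

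Start regions were found for 37 of the 44 members, and were not found for Psma8, Psmb1, Psmb2, Psmb7, Psmc3, Psmd3 and Psmd7. The gamma-activated site was matched in Psmb8 and Psmd2, against 8.3% of all 32851 start regions of the same length. The interferon-stimulated core was matched in Psme1, Psmb3, Psmd4 and Psmd9, against 3.44% of all. The antioxidant core was matched in Psmb5, Psmb6 and 4 others, against 12.4%, the CCAAT box in 16 members, against 37.4%, and the GC box in 22, against 35.7%. The region of Psmb10 held none of the 5 motifs. A match describes the letters and is not a bound site, and the absence of a match covers this window alone.

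With age, the immunoproteasome gene Psmb8 rose in both genotypes and Psmb9 rose in wild type, and without the arrays of low 5′ signal in α9−/− too, while most constitutive subunits were not called at any age step. Psmb8, which encodes the chymotrypsin-like subunit beta5i, had log2 signals of 6.84, 7.54 and 6.84 in α9−/− and 7.87, 6.92 and 6.91 in wild type at P3, after quantile normalization over all arrays, the scale of every age comparison here. At P7 it had 8.24, 7.90 and 7.74 in α9−/− and 8.31, 8.25 and 8.21 in wild type, at P13 8.65, 8.86 and 8.37 in α9−/− and 9.03, 8.95 and 9.38 in wild type, and at P60 8.35, 7.78 and 8.69 in α9−/− and 8.36, 9.09 and 9.0 in wild type. In both genotypes all arrays of P7, P13 and P60 lay above all those of P3, the highest P3 array of each genotype was the one of low 5′ signal, and the highest array, at 9.38, was one of wild type at P13. Between P3 and P60 Psmb8 rose by 1.20 in α9−/− (standard error 0.29, adjusted p = 0.00704 from limma) and by 1.58 in wild type (standard error 0.29, adjusted p = 0.000683). Without the 5 arrays of low 5′ signal the rise was 1.43 in α9−/− and 2.13 in wild type, and it was called in both. At its other, dim probe set, with a mean log2 signal of 4.16, the differences were 0.04 in α9−/− and 0.30 in wild type and were not called.

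Psmb9 encodes beta1i, which takes the place of the caspase-like beta1, and lies close to Psmb8 in the MHC region of chromosome 17 (34182030 to 34187330, against 34198195 to 34201454 for Psmb8, on GRCm38.p6). Its log2 signals were 6.53, 7.39 and 6.62 in α9−/− and 7.55, 6.53 and 6.36 in wild type at P3, and 7.49, 6.93 and 7.23 in α9−/− and 7.57, 7.43 and 7.67 in wild type at P7. At P13 they were 8.27, 7.91 and 7.66 in α9−/− and 8.40, 8.57 and 8.74 in wild type, and at P60 7.51, 7.27 and 8.03 in α9−/− and 8.19, 8.20 and 8.22 in wild type. In wild type all P13 and P60 arrays were above all P3 arrays, and in α9−/− the P60 arrays overlapped the P3 array of low 5′ signal. The gene rose by 1.39 between P3 and P60 in wild type (standard error 0.28, adjusted p = 0.00197 from limma), and the difference in α9−/− was 0.75 (standard error 0.28, adjusted p = 0.0847). The rise without the arrays of low 5′ signal was 1.03 in α9−/− (standard error 0.23, adjusted p = 0.00721) and 1.77 in wild type (adjusted p = 0.000293), and both were called. It was also called in α9−/− when replicate 2 of P3 alone was left out (adjusted p = 0.0293).

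**Figure D1:**
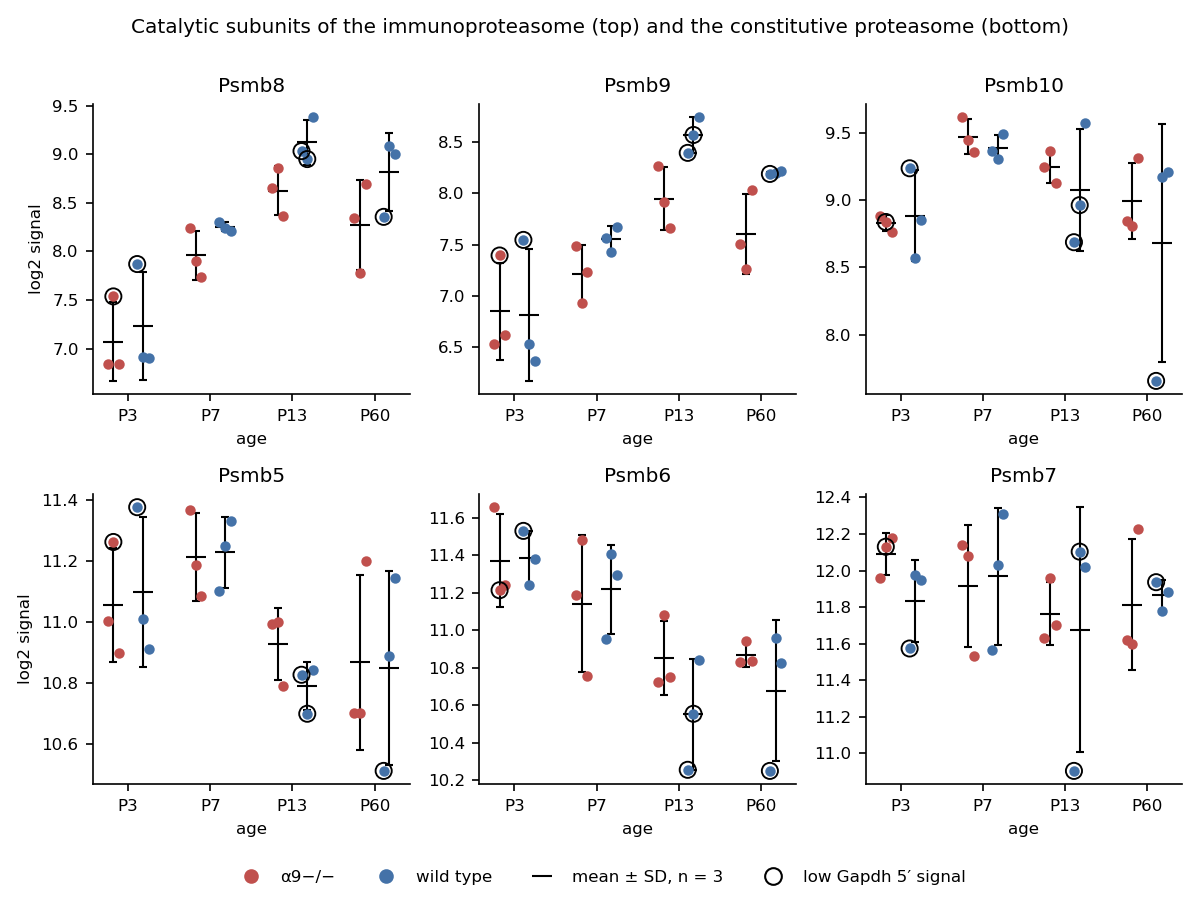
Log2 signal of the 3 immunoproteasome catalytic subunits (top) and their constitutive counterparts (bottom) by age, each point 1 array, black marks the mean and SD of 3 arrays and rings the arrays of low Gapdh 5′ signal. Psmb8 and Psmb9 are lowest at P3 and highest at P13 in both genotypes, and Psmb10 has its highest group means at P7.

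Psmb10, which encodes beta2i and lies on chromosome 8, was called at no age step. Its log2 signals were 8.88, 8.84 and 8.76 in α9−/− and 9.24, 8.57 and 8.85 in wild type at P3, 9.62, 9.45 and 9.36 in α9−/− and 9.37, 9.30 and 9.50 in wild type at P7, 9.25, 9.37 and 9.13 in α9−/− and 8.69, 8.96 and 9.57 in wild type at P13, and 8.85, 8.81 and 9.32 in α9−/− and 7.66, 9.17 and 9.21 in wild type at P60. The lowest of these, 7.66, was the P60 wild type array of low 5′ signal. Between P3 and P60 the difference was 0.16 in α9−/− (95% confidence interval -0.48 to 0.81) and -0.21 in wild type (-0.85 to 0.44). With the arrays of low 5′ signal left out it was 0.17 in α9−/− and 0.48 in wild type (standard error 0.19, adjusted p = 0.11), so that the sign in wild type turned. Over the 24 arrays, which share age groups, the log2 signals of Psmb8 and Psmb9 had a Pearson r of 0.95, those of Psmb8 and Psmb10 of 0.30, and those of Psmb9 and Psmb10 of 0.13, given as descriptions. Over the 19 arrays without low 5′ signal the same r were 0.97, 0.67 and 0.62.

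Among the constitutive catalytic subunits, Psmb6, the beta1 subunit that Psmb9 replaces, fell with age in wild type and the others were not called. Psmb6 had log2 signals of 10.83, 10.94 and 10.84 in α9−/− and 10.25, 10.96 and 10.82 in wild type at P60, against 11.66, 11.21 and 11.24 in α9−/− and 11.53, 11.24 and 11.38 in wild type at P3. All P60 arrays were below all P3 arrays in both genotypes. It fell by 0.71 between P3 and P60 in wild type (standard error 0.22, adjusted p = 0.0377 from limma), with a difference of -0.50 in α9−/− (standard error 0.22, adjusted p = 0.148). The wild type difference without the arrays of low 5′ signal was -0.42. The call was lost. For Psmb5, the chymotrypsin-like beta5, the difference between P60 and P3 was -0.19 in α9−/− (95% confidence interval -0.58 to 0.20) and -0.25 in wild type (-0.64 to 0.14). For Psmb7, the trypsin-like beta2, it was -0.28 in α9−/− (-0.85 to 0.30) and 0.03 in wild type (-0.54 to 0.61).

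The RNA signals of paired subunits were also compared within each array. The value was the log2 signal of an immunoproteasome gene minus that of the constitutive gene whose place its product takes. It does not measure the exchange of the proteins. The level of such a difference has no meaning across probe sets, and only its change is given. Relative to P3, Psmb8 minus Psmb5 was higher by 0.73, 1.68 and 1.39 in α9−/− and by 0.90, 2.20 and 1.84 in wild type at P7, P13 and P60. Psmb9 minus Psmb6 was higher by 0.60, 1.62 and 1.26 in α9−/− and by 0.91, 2.59 and 2.10 in wild type at the same ages. For both pairs the arrays of P13 and of P60 did not overlap those of P3 in either genotype. With 3 arrays a group the exact permutation p was 0.1 for each of these, the smallest such a design can give. Psmb10 minus Psmb7 differed from P3 by 0.82, 0.75 and 0.44 in α9−/− and by 0.37, 0.34 and -0.24 in wild type, and its arrays did not overlap those of P3 at any of these ages in α9−/− and overlapped at each in wild type.

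Over all members, the largest number of calls came between P3 and P60. In α9−/− 1 member was higher, Psmb8, and 4 were lower, against 14.3% of all 45101 probe sets called in this comparison, and in wild type 2 were higher, Psmb8 and Psmb9, and 3 were lower, against 13.7%. At 5 of 44 members in each genotype, this share is near the background. The 37 constitutive members had a median difference of -0.17 in α9−/− and -0.25 in wild type, against -0.06 and -0.04 over all probe sets, and 28 members in α9−/− and 22 in wild type had a 95% confidence interval within a 2-fold change either way, against 52.0% and 53.2% of all probe sets. By role, the 7 alpha ring genes differed between P60 and P3 by -0.51 to 0.06 in α9−/− and -0.62 to 0.08 in wild type, and the 4 beta ring genes without catalytic activity by -0.58 to -0.21 in α9−/− and -0.66 to -0.16 in wild type, with 0 calls. A second Psma5 probe set, of mean log2 signal 10.89 against 11.20, fell by 0.73 in α9−/− (adjusted p = 0.00194) and by 0.59 in wild type (adjusted p = 0.00913). With the arrays of low 5′ signal left out, Psma4 fell by 0.74 in α9−/− (adjusted p = 0.00987) and by 0.68 in wild type (adjusted p = 0.0253). The 6 ATPases of the 19S base, which unfold substrates, differed by -0.31 to 0.14 in α9−/− and -0.34 to 0.10 in wild type, and the 3 assembly chaperones by -0.54 to -0.07 in α9−/− and -0.39 to -0.32 in wild type, again with 0 calls. The other 11 base and lid genes, which bind and trim ubiquitin chains or hold the lid together, held 1 call, Psmd6 in α9−/−, and without the arrays of low 5′ signal also Psmd8 in wild type, which fell by 0.81 (adjusted p = 0.0417). With both genotypes averaged, an alternative chosen after seeing the data, 2 members were higher and 8 lower at P60, against 25.3% of all probe sets, and the lower ones were Psma8, Psmc3ip, Psme4, Psmb2, Psmb6, Psma5, Psme1 and Psmd6.

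**Figure D2:**
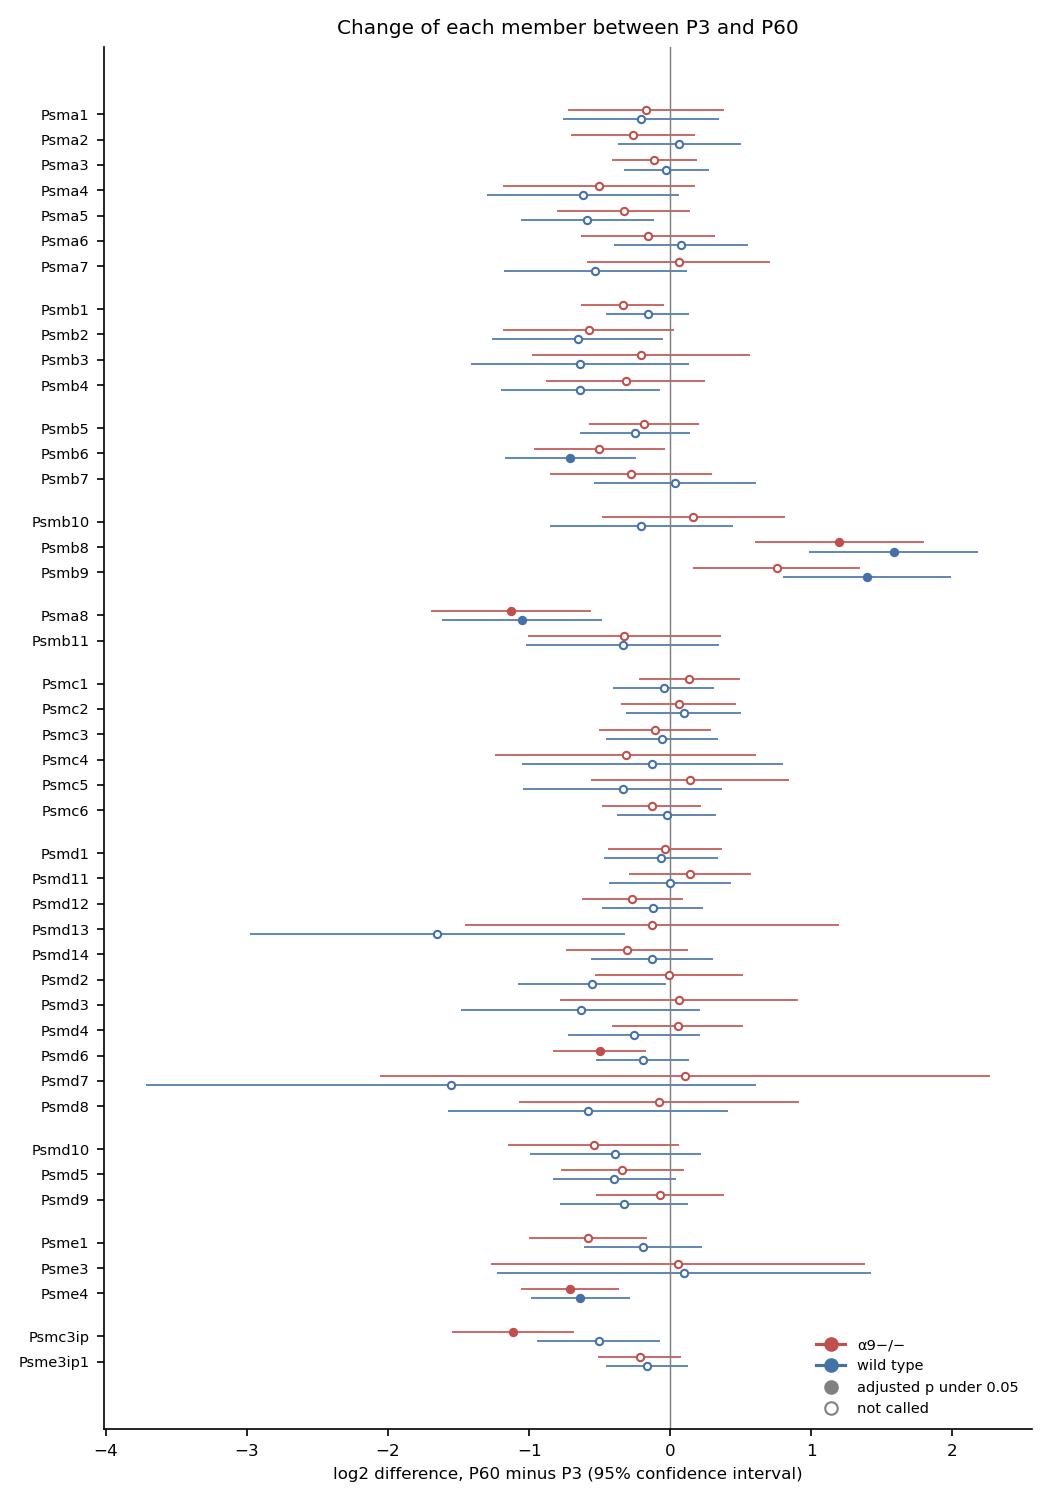
Log2 difference between P60 and P3 for each of the 44 members, grouped by role, with 95% confidence intervals. Filled points passed an adjusted p of 0.05 from limma. Psmb8 and Psmb9 stand to the right at 0.75 to 1.58, Psma8 and Psme4 are filled to the left in both genotypes, and the wide wild type intervals of Psmd7 and Psmd13 hold the P60 array of low 5′ signal.

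The members called lower at P60 than at P3 in both genotypes were Psme4 and Psma8. Psme4, which encodes the activator PA200, had log2 signals of 11.15, 11.31 and 11.26 in α9−/− and 11.24, 11.24 and 11.35 in wild type at P3, 11.05, 10.99 and 11.01 in α9−/− and 11.34, 11.13 and 11.21 in wild type at P13, and 10.57, 10.73 and 10.29 in α9−/− and 10.91, 10.63 and 10.39 in wild type at P60. In each genotype the P60 arrays lay below all others. Between P3 and P60 it fell by 0.71 in α9−/− (standard error 0.17, adjusted p = 0.00635 from limma) and by 0.64 in wild type (standard error 0.17, adjusted p = 0.0132). Psme4 fell by 0.68 in α9−/− and by 0.79 in wild type without the arrays of low 5′ signal, both called. A second Psme4 probe set of similar brightness was lower by 0.66 in α9−/− and by 0.52 in wild type, both called.

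Psma8 encodes alpha4s, an alpha-ring subunit of spermatocyte proteasomes. Its only probe set was dim, with a mean log2 signal of 5.87, at percentile 38.9 of all probe sets. Its log2 signals were 6.34, 6.37 and 5.59 in α9−/− and 6.37, 6.39 and 5.74 in wild type at P3, 6.28, 5.63 and 5.69 in α9−/− and 6.50, 6.71 and 5.99 in wild type at P13, and 4.90, 5.05 and 4.97 in α9−/− and 5.49, 5.25 and 4.61 in wild type at P60. The P60 arrays were below all others in both genotypes. It fell by 1.13 between P3 and P60 in α9−/− (standard error 0.27, adjusted p = 0.00772 from limma) and by 1.05 in wild type (standard error 0.27, adjusted p = 0.0122), and without the arrays of low 5′ signal by 0.99 and 1.13, both called. Psmb11, the thymus subunit beta5t, ran from 3.12 to 4.89 over all arrays and was called in no comparison, with differences between P60 and P3 of -0.33 in α9−/− (95% confidence interval -1.01 to 0.36) and -0.33 in wild type (-1.02 to 0.35).

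Psmc3ip, the meiotic factor that entered by its symbol, had log2 signals of 7.90, 7.82 and 7.31 in α9−/− and 7.65, 7.41 and 7.49 in wild type at P3, 7.70, 7.63 and 7.33 in α9−/− and 8.49, 8.54 and 8.08 in wild type at P13, and 6.39, 6.70 and 6.60 in α9−/− and 7.40, 6.77 and 6.86 in wild type at P60. The highest arrays were the wild type ones of P13, where the deposited values differed by -0.80 in α9−/− against wild type (standard error 0.19, adjusted p = 0.0563). Between P13 and P60 it fell by 0.99 in α9−/− (standard error 0.21, adjusted p = 0.00509 from limma) and by 1.36 in wild type (standard error 0.21, adjusted p = 0.00025), and between P3 and P60 it fell by 1.11 in α9−/− (adjusted p = 0.001), with a difference of -0.51 in wild type (adjusted p = 0.123). These calls were kept without the arrays of low 5′ signal. Psmd6, the 19S lid subunit Rpn7, fell by 0.50 between P3 and P60 in α9−/− (standard error 0.16, adjusted p = 0.0388 from limma), with 10.98, 11.15 and 10.93 at P60, against 11.53, 11.49 and 11.53 at P3. This call held in 4 of 11 alternatives and was lost in 7, with adjusted p up to 0.359.

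Step by step, the first week held no called member with all arrays, and 2 without those of low 5′ signal. Between P3 and P7 limma called 0 members in α9−/−, against 1.21% of all probe sets, and 0 in wild type, against 0.996%, with 1 and 2 at an unadjusted p under 0.05. Psmb8 was among them with 0.89 in α9−/− (standard error 0.29, adjusted p = 0.154) and 1.02 in wild type (standard error 0.29, adjusted p = 0.103). Each P3 group held an array of low 5′ signal in which Psmb8 and Psmb9 were high. Without these arrays Psmb8 rose by 1.12 in α9−/− (adjusted p = 0.0316) and by 1.34 in wild type (adjusted p = 0.00733). Psmb9 then rose by 1.11 in wild type (adjusted p = 0.0224), with a difference of 0.64 in α9−/− (adjusted p = 0.223). The share of all probe sets called in this fit was 1.22% in α9−/− and 2.2% in wild type. Between P7 and P13 limma called 0 in α9−/−, against 2.94%, with 4 at an unadjusted p under 0.05, and in wild type 3 higher and 1 lower, against 14.2%. The wild type calls were Psmb9 with 1.02 (standard error 0.28, adjusted p = 0.0228), Psmb8 with 0.87 (standard error 0.29, adjusted p = 0.0488), Psmc3ip with 0.82 and Psmb6 with -0.67 (standard error 0.22, adjusted p = 0.0496), and the same differences in α9−/− were 0.73, 0.67, 0.02 and -0.29. Both wild type P13 arrays of low 5′ signal entered this step, and leaving out all such arrays left 1 wild type array at P13. Psmb9 was then higher by 1.19 and Psmb8 by 1.13, while the calls of Psmc3ip and Psmb6 were lost. Over all alternatives the wild type call of Psmb8 at this step held in 3 of 11 and that of Psmb9 in 5 of 10. Between P13 and P60 it called 1 lower member in α9−/−, Psmc3ip, against 7.27%, and 3 lower in wild type, Psmc3ip, Psma8 with -1.28 (standard error 0.27, adjusted p = 0.00423) and Psme4 with -0.59 (standard error 0.17, adjusted p = 0.0261), against 12%. The wild type differences without the arrays of low 5′ signal were -1.06 for Psma8 and -0.70 for Psme4, again with 1 wild type array at P13. Both calls were lost. In the same fit Psma8 fell by 0.90 in α9−/− (adjusted p = 0.0331, against 0.0511 with all arrays).

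Few members were called between the genotypes. At P3, P7 and P60 hardly any of all probe sets were called either, so these counts say little about the members in particular. Here the genotypes were compared age by age, on the log2 values as deposited. At P3 limma called 0 of 44 members, against 0% of all probe sets, and at P7 0, against 0.00443%, with 0 members at an unadjusted p under 0.05 at either age. The differences of the 37 constitutive members ran from -0.37 to 0.28 at P3 and from -0.75 to 0.19 at P7, and 33 and 34 of the 37 had a 95% confidence interval within a 2-fold change either way, against 68.5% and 82.6% of all probe sets. Psmb8 differed by -0.18 at P3 (95% confidence interval -0.98 to 0.63) and -0.28 at P7 (-0.76 to 0.20), Psmb9 by 0.02 (-0.89 to 0.94) and -0.32 (-0.83 to 0.19), and Psmb10 by -0.07 (-0.59 to 0.45) and 0.09 (-0.33 to 0.51). At P60 limma called 0 members as well, against 0%, with 0 at an unadjusted p under 0.05, and differences of the constitutive members from -0.48 to 1.52.

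At P13, the age at which 5.45% of all probe sets were called, 1 member was lower in α9−/− at its brightest probe set and none was higher. Psme1, which encodes the interferon-inducible subunit PA28 alpha of the 11S activator (chromosome 14, 55578494 to 55581527 on GRCm38.p6), had log2 signals of 10.25, 10.26 and 10.22 in α9−/− cochleae, against 11.00, 11.12 and 10.84 in wild type cochleae. The ranges did not overlap, and the 3 α9−/− pools were nearly equal. Psme1 fell by 0.74 in α9−/− (standard error 0.16, adjusted p = 0.0459 from limma, 95% confidence interval -1.12 to -0.37). The adjusted p lay just under the threshold, and the call was lost when any 1 of 5 of the 6 arrays was left out, with a difference of -0.60 without the wild type arrays of low 5′ signal, which leave 1 wild type array. At P3 and P7 the difference of Psme1 was 0.01 (-0.58 to 0.59) and -0.04 (-0.46 to 0.38), and at P60 it was -0.38 (-0.99 to 0.24). Psma1 differed by -0.15 at P13 at its brightest probe set, without a call. At a dimmer Psma1 probe set, of mean log2 signal 6.09, the P13 difference was -1.26 (adjusted p = 0.0436 from limma).

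**Figure D3:**
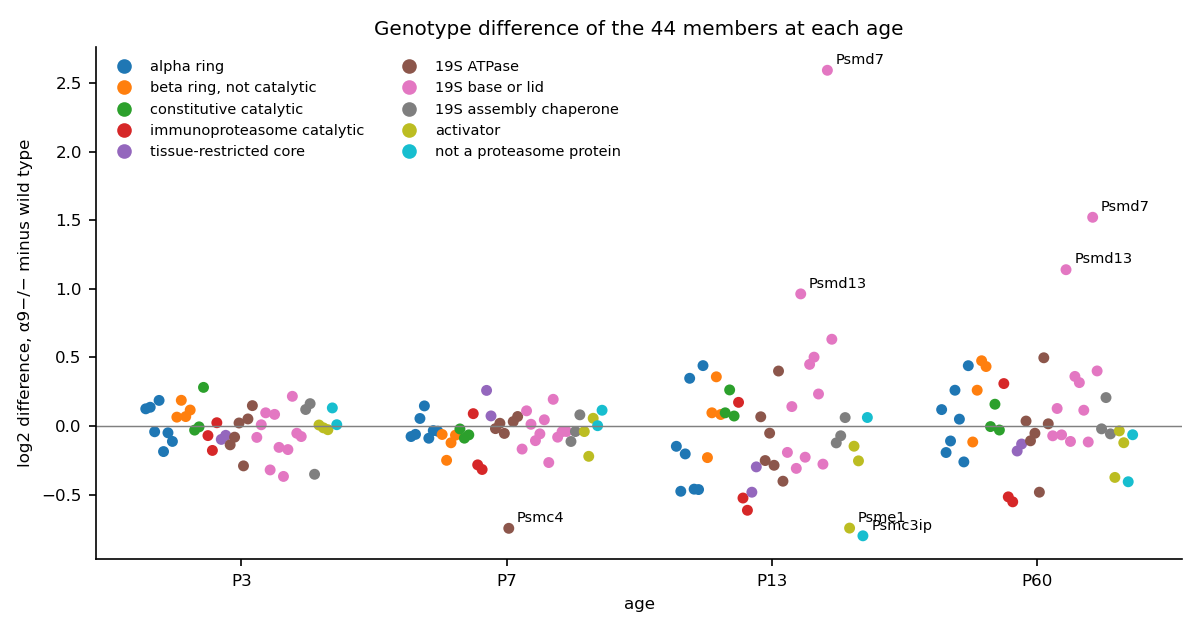
Log2 difference between α9−/− and wild type for each of the 44 members at 4 ages, one point per member and coloured by role. The points lie between -0.75 and 0.28 at P3 and P7 and spread out at P13 and P60, where Psmd7 and Psmd13 are the highest and rest on wild type arrays of low 5′ signal.

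Psmb8 and Psmb9 had lower mean signal in α9−/− than in wild type at P13, short of the threshold at their brightest probe sets. For Psmb8 the log2 signals were 8.87, 9.12 and 8.58 in α9−/− and 9.20, 9.21 and 9.73 in wild type, or -0.53 for α9−/− minus wild type (adjusted p = 0.189 from limma, standard error 0.23). For Psmb9 they were 8.47, 8.15 and 7.88 in α9−/− and 8.49, 8.80 and 9.06 in wild type, or -0.61 (adjusted p = 0.144, standard error 0.23). The ranges did not overlap in either gene, though those of Psmb9 nearly met, while Psmb10 overlapped with a difference of 0.17 (95% confidence interval -0.50 to 0.85). The dim probe set of Psmb8, of mean log2 signal 4.16, fell by 1.84 (adjusted p = 0.0409), and Psmb9 was called with array weights, at -0.67 (adjusted p = 0.0137). At P60 the differences were -0.52 for Psmb8 (-1.27 to 0.24), -0.55 for Psmb9 (-1.14 to 0.03) and 0.31 for Psmb10 (-0.73 to 1.35). Leaving out the arrays of low 5′ signal leaves 1 wild type array at P13 and 2 at P60. The differences at P13 and P60 were then -0.88 and -0.76 for Psmb8, -0.89 and -0.59 for Psmb9, and -0.43 and -0.21 for Psmb10, with no call. Relative to its constitutive partner within each array, Psmb8 differed between α9−/− and wild type by -0.62 at P13 and -0.51 at P60 and Psmb9 by -0.88 at P13 and -0.71 at P60, and in each case the ranges of the 3 arrays did not overlap. Non-overlap was met by 33.6% of all probe sets at P13 and by 10.9% at P60. The exact permutation p was 0.1 for each of the 4, the smallest that 3 arrays against 3 can give, or 0.3 after adjustment over 12 tests.

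The 4-age course of each member was compared between genotypes over all 24 arrays, and limma called 0 members, against 0.00443% of all probe sets, with 1 at an unadjusted p under 0.05, Psmc3ip (adjusted p = 0.737). A difference in the age course of Psmb9, which was called between P3 and P60 in wild type and not in α9−/−, was therefore not shown (adjusted p = 0.914). Arrays of the genotypes did not overlap for 1 higher member (Psmd6) and 2 lower ones at P3, against 5.76% of all probe sets, and for 1 lower member at P7, against 4.48%. At P13 they did not overlap for 3 higher members, Psmd4, Psmd7 and Psmd13, and for 11 lower ones, among them Psma2, Psma5 and Psma6 of the alpha ring and Psmc2, Psmc6 and Psmd12 of the 19S cap, against 33.6% of all probe sets. At P60 they did not overlap for 3 lower members, Psmb1, Psmb9 and Psmc3ip, against 10.9%. These shares of 44 lie near or below the background.

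At the brightest probe set of each member, the largest genotype differences at P13 and at P60 were those of the 19S lid genes Psmd7 and Psmd13. A second Psmd4 probe set, of mean log2 signal 9.27, differed by 2.90 at P13 (adjusted p = 0.0745 from limma) and by 1.53 at P60, with no call. Psmd7, the lid subunit Rpn8, had deposited log2 signals of 9.32, 9.89 and 9.95 in α9−/− and 5.81, 6.39 and 9.17 in wild type at P13, and 9.18, 9.14 and 9.0 in α9−/− and 4.49, 9.53 and 8.73 in wild type at P60. The 3 low values belong to the arrays of low 5′ signal. Its difference was 2.60 at P13 (standard error 0.80, adjusted p = 0.0975 from limma) and 1.52 at P60 (standard error 1.17, adjusted p = 0.885), and it was not called. The authors list this probe set as higher in α9−/− at P13. At P3, where each genotype held 1 such array, Psmd7 was at 7.41 in α9−/− replicate 2 and 7.37 in wild type replicate 1, against 9.64 to 9.98 in the other 4 arrays. On the quantile scale, the arrays of low 5′ signal differed from the others of their group by -2.41 in P3 α9−/−, -2.52 in P3 wild type, -2.97 in P13 wild type and -4.85 in P60 wild type. Another Psmd7 probe set, of mean log2 signal 7.08, differed by 0.45 at P13 and 0.12 at P60. The Psmd7 difference without the arrays of low 5′ signal was 0.55 at P13 and -0.02 at P60. Psmd13, the lid subunit Rpn9, differed between genotypes by 0.96 at P13 and 1.14 at P60, and by 0.32 and -0.12 without these arrays. It was low in P60 wild type replicate 1, at 5.55, against 9.33 and 9.31 in its mates. Its arrays of low 5′ signal differed from the others by 0.33 in P3 wild type, -0.48 in P3 α9−/− and -0.79 in P13 wild type. Psmd8, another lid gene, was lower in such arrays by more than 1 in all 4 groups, and its genotype difference was 0.63 at P13.

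The P60 wild type array of low 5′ signal lay more than 1 below the mean of its mates in 13 of the 44 members, and the P3 and P13 arrays of this kind in 2 or 3, while the median member differed by -0.33 there and by -0.11 to 0.03 in the other groups. Psmb8 and Psmb9 moved the other way at P3, where they were higher in the array of low 5′ signal than in its mates by 0.70 and 0.82 in α9−/− and by 0.96 and 1.10 in wild type. In the same α9−/− array the markers of all blood cells had a mean log2 signal of 10.08, against 9.75 and 9.15 in its mates, those of neutrophils 8.33 against 7.94 and 8.36, and those of B cells 6.01 against 5.79 and 5.68. In the wild type array these were 10.30 against 9.41 and 9.63, 8.67 against 7.31 and 7.41, and 6.52 against 5.49 and 5.43, all above its mates. Their part in the signals of Psmb8 and Psmb9 was not tested. At P13 the arrays of low 5′ signal differed from their wild type mate by -0.39 for Psmb8 and -0.26 for Psmb9.

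**Figure D4:**
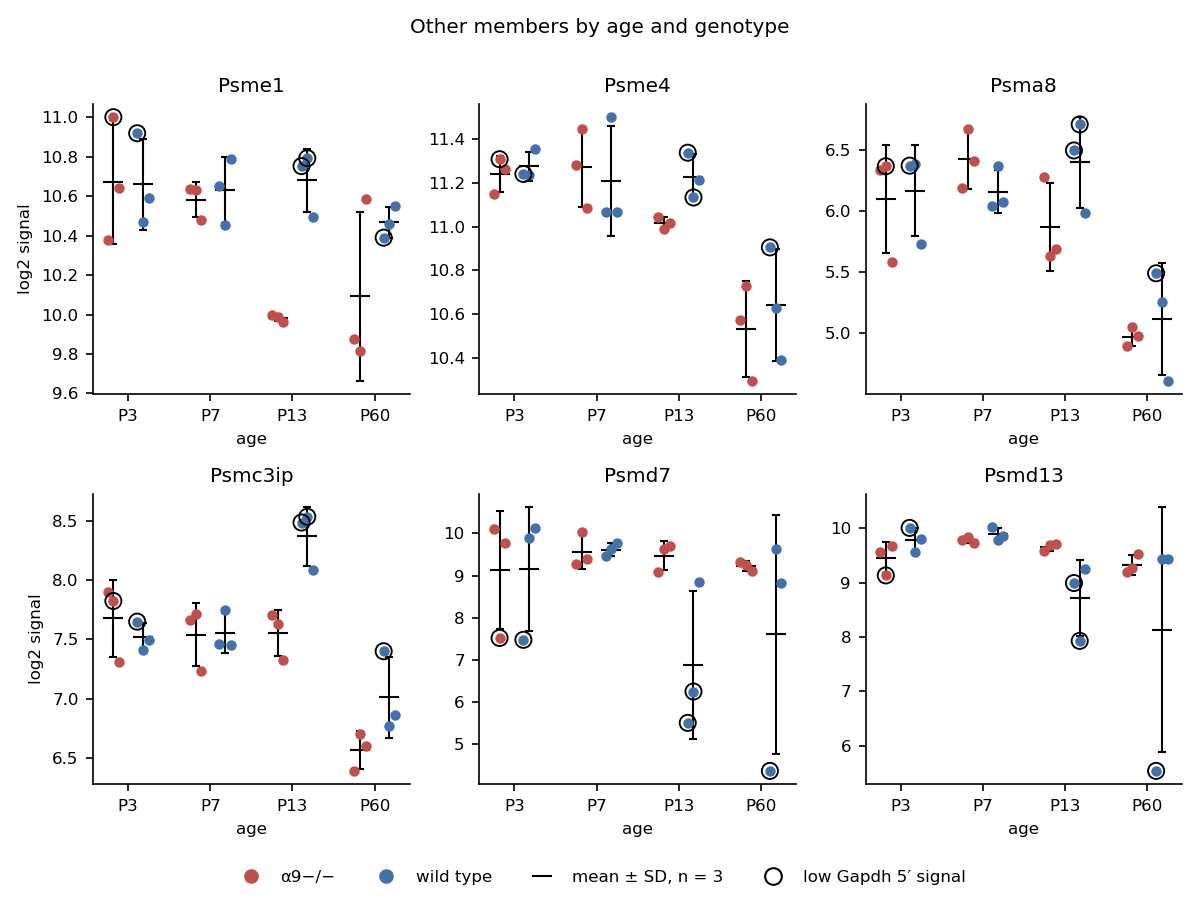
Log2 signal of 6 further members by age, each point 1 array, black marks the mean and SD of 3 arrays and rings the arrays of low Gapdh 5′ signal. Psme1 is low in α9−/− at P13, Psme4 and Psma8 are lowest at P60, and Psmd7 is low in every ringed array.

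The PA28 gamma gene Psme3, whose product acts in the nucleus, was the most variable activator, with quantile-scale signals of 7.65 to 10.43 over all arrays, and was called in no comparison. Another Psme3 probe set of nearly equal brightness rose by 0.69 between P7 and P13 in wild type (adjusted p = 0.0223) and fell by 0.78 between P13 and P60 (adjusted p = 0.0117). At the brightest, its differences between genotypes ran from -0.22 (95% confidence interval -2.02 to 1.57) to -0.01, and between P60 and P3 they were 0.05 in α9−/− (-1.27 to 1.38) and 0.10 in wild type (-1.23 to 1.42), so that neither a 2-fold rise nor a 2-fold fall is excluded. Psme4 differed between genotypes by -0.25 to 0.06 over the 4 ages.

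Some genes of the antigen presentation pathway that the immunoproteasome feeds were called with age. Of 12 genes for loading peptides onto MHC class I, 4 were higher at P60 than at P3 in α9−/−, and 5 were higher and 1 lower in wild type, against 14.3% and 13.7% of all probe sets called, with medians of 0.40 and 0.75 against -0.06 and -0.04 over all probe sets. H2-K1, an MHC class I heavy chain, rose by 2.24 in α9−/− and 3.07 in wild type, and Nlrc5, the transactivator of class I genes, by 1.29 and 2.27. H2-D1, another heavy chain, rose by 1.74 in α9−/−. B2m, the class I light chain, rose by 1.15 in wild type, where the chaperone gene Calr fell by 0.67. Leaving out the arrays of low 5′ signal was also tried for the lists, a choice made with their values in view. The MHC class I counts were the same, against 15.8% of all probe sets in α9−/− and 15.9% in wild type. In wild type B2m, Tapbp and Calr lost their calls, at 0.69, 0.96 and -0.25. H2-D1, Tap2 and Pdia3 gained one, at 1.95, 1.26 and -1.63.

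Of 16 measured genes of the interferon response, 7 were higher at P60 in α9−/− and 10 in wild type, and 0 were lower, against the same 14.3% and 13.7%, with medians of 0.77 and 1.63. With the arrays of low 5′ signal left out, 8 were higher in α9−/− and 12 in wild type, where 1 was lower, against 15.8% and 15.9% of all probe sets. The largest were Ifit1, a sensor of viral RNA, with 2.90 in α9−/− and 3.61 in wild type, Ifit3 with 2.48 and 2.80, and the guanylate-binding protein gene Gbp2 with 1.84 and 2.77. The mean log2 signal of the list was 6.78 to 7.14 at P3, 6.97 to 7.30 at P7, 7.31 to 7.49 at P13 and 7.56 to 8.05 at P60 in α9−/−, and 6.73 to 6.99, 7.02 to 7.28, 7.57 to 7.84 and 8.02 to 8.57 in wild type. It was highest at P60, whereas Psmb8 and Psmb9 had their highest group means at P13. Between genotypes at P13, Gbp3 fell by 1.36 (standard error 0.18, adjusted p = 0.014 from limma) and Gbp2 by 0.95 (standard error 0.21, adjusted p = 0.0494) in α9−/−, both calls lost without the arrays of low 5′ signal, and limma called 0 genes of the MHC class I list.

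Markers of blood cells, which express immunoproteasome subunits constitutively, moved with age in the same samples. The 4 markers shared by all blood cells, Ptprc, Coro1a, Laptm5 and Tyrobp, had a mean log2 signal of 9.15 to 10.08 at P3, 10.21 to 10.34 at P7, 10.69 to 11.14 at P13 and 10.20 to 10.52 at P60 in α9−/−, and 9.41 to 10.30, 10.34 to 10.57, 11.08 to 11.56 and 10.64 to 10.95 in wild type. They were highest at P13, and 2 of the 4 were called higher at P60 than at P3 in each genotype, against 14.3% of all probe sets in α9−/− and 13.7% in wild type. These were Ptprc, by 1.34 in α9−/− and 1.97 in wild type, and Coro1a, by 1.88 and 1.98. Ptprc also fell by 1.00 in α9−/− against wild type at P13 (standard error 0.18, adjusted p = 0.0278 from limma), a call lost without the arrays of low 5′ signal at nearly the same difference, -0.99. The mean of 7 neutrophil markers was 7.94 to 8.36 at P3, 10.03 to 10.41 at P7, 12.16 to 12.38 at P13 and 12.18 to 12.47 at P60 in α9−/−, and 7.31 to 8.67, 10.46 to 10.91, 12.65 to 13.14 and 12.19 to 12.59 in wild type. The mean of 5 B cell markers was 5.68 to 6.01 at P3, 7.20 to 7.77 at P7, 9.29 to 9.63 at P13 and 7.09 to 7.42 at P60 in α9−/−, and 5.43 to 6.52, 7.40 to 7.68, 9.72 to 10.49 and 7.15 to 7.98 in wild type. It was highest at P13, like Psmb8 and Psmb9, and in each genotype 4 of the 5 were called higher at P60 than at P3 and 4 lower at P60 than at P13. The shares of all probe sets called were 14.3% in α9−/− and 13.7% in wild type between P3 and P60, and 7.27% and 12% between P13 and P60. The mean of 3 erythroid markers was also highest at P13, at 11.34 to 11.46 in α9−/− and 10.95 to 11.94 in wild type, against at most 9.72 at P3 and P7 and 9.79 to 10.38 at P60. That of 6 T and NK cell markers lay between 5.28 and 6.86 in all arrays. At P3, P7, P13 and P60 its group means were 5.66, 5.94, 6.02 and 6.03 in α9−/− and 5.60, 6.08, 6.58 and 6.45 in wild type. The mean of 9 macrophage markers lay between 8.22 and 9.70 in all arrays. Its group means at these ages were 8.79, 8.71, 8.66 and 8.67 in α9−/− and 8.81, 8.95, 8.56 and 9.18 in wild type. The mean of 4 cerebellar markers was 9.62 to 11.93 in α9−/− and 7.82 to 10.80 in wild type at P60 and at most 9.39 at the earlier ages, and the part of these lists in the members' values was not tested. In these bulk samples more blood cells and more immunoproteasome RNA per cell cannot be told apart.

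**Figure D5:**
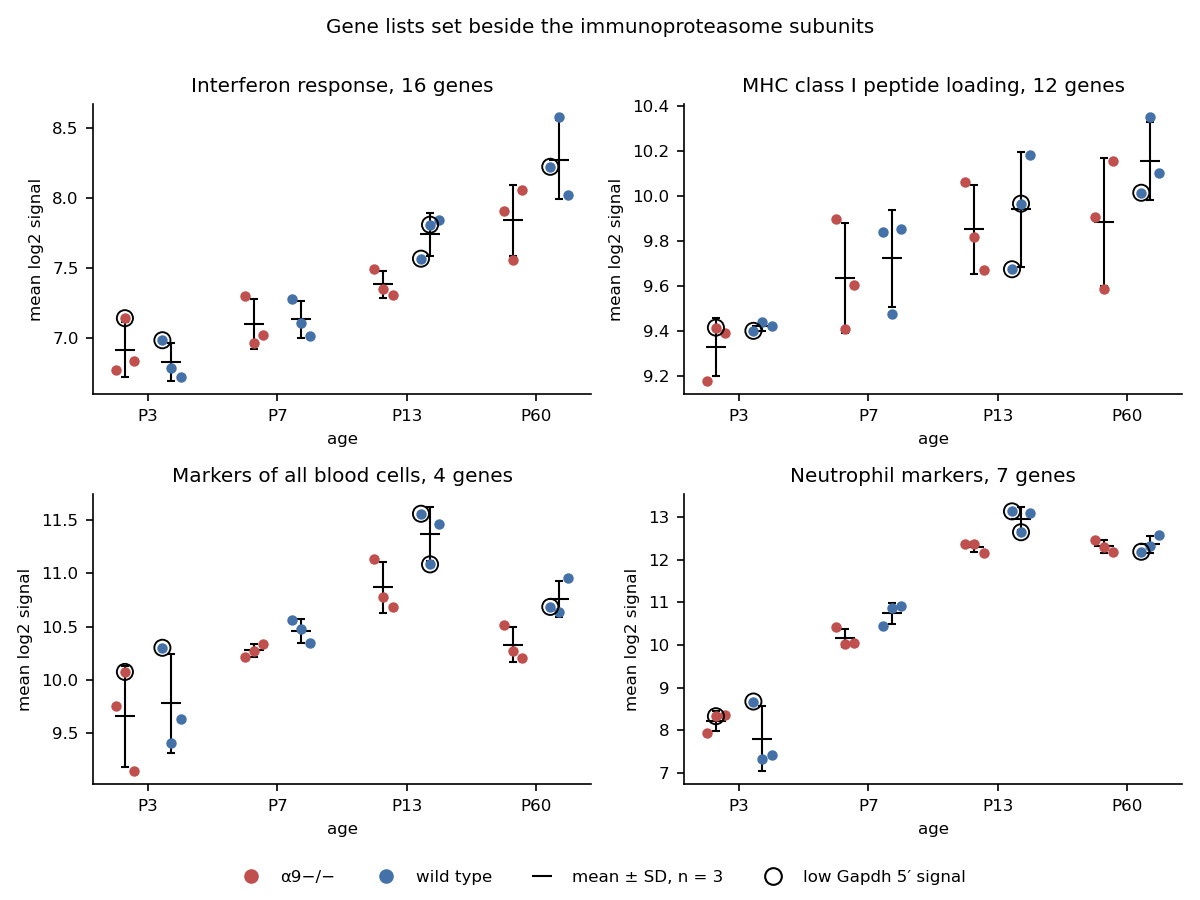
Mean log2 signal per array of 4 gene lists by age, with black marks for the mean and SD of 3 arrays and rings for arrays of low Gapdh 5′ signal. The interferon and MHC class I lists have their highest group means at P60 in both genotypes, and the markers of all blood cells at P13. The neutrophil markers have theirs at P13 in wild type and at P60 in α9−/−.

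The genes whose log2 signal was most like the mean of Psmb8, Psmb9 and Psmb10 over the 24 arrays were looked up over all 18194 genes, with age groups shared by all of them. They were Il10ra (Pearson r 0.95), Il17ra (0.94), Myo1g (0.93), Ncf1 (0.92), Coro1a (0.92), Cd79a (0.91), Napsa (0.91), Lsp1 (0.90), Slc15a3 (0.90) and Cd52 (0.90). Ncf1 encodes a subunit of the phagocyte oxidase, Cd79a a chain of the B cell receptor, and Cd52 a surface glycoprotein of lymphocytes. Over the 8 group means r was 0.94 to 0.99 for these 10 genes.

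The machinery that builds and regulates the proteasome showed calls in both directions. Of 15 measured genes, 1 was higher and 2 were lower at P60 than at P3 in each genotype, again against 14.3% and 13.7%. These counts were the same without the arrays of low 5′ signal, against 15.8% and 15.9%. Psmg1 and Psmg4, chaperones of alpha ring assembly, fell by 0.68 and 1.22 in α9−/− and by 0.71 and 0.79 in wild type. Ubqln2, a shuttle for ubiquitylated proteins, rose by 0.60 in α9−/−, and Nfe2l2, a transcription factor of antioxidant genes, rose by 0.82 in wild type. Between genotypes at P13 Nfe2l1, whose product drives proteasome genes when the proteasome is inhibited, rose by 1.32 in α9−/− (standard error 0.25, adjusted p = 0.0354 from limma), a call lost without the arrays of low 5′ signal, and no other gene of the list was called. Of 11 genes of ubiquitin conjugation, 1 was higher and 1 lower at P60 than at P3 in each genotype, against the same 14.3% and 13.7%. Skp1, a subunit of SCF ligases, rose by 1.21 in α9−/− and 1.33 in wild type, and 0 genes of this list were called between genotypes at any age.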

How the data were processed

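Total RNA of cochlear pools was hybridized to Affymetrix whole-genome mouse arrays. The authors deposited log2 values made by background correction, quantile normalization and probe set summarization with RMA methods, and these values were used as deposited. Genotypes were compared within each age on the deposited log2 values with limma 3.58.1 in R 4.3.3, and ages and age courses after quantile normalization over all 24 arrays with 1 mean per genotype and age. All 45101 probe sets entered each fit, p-values were adjusted by Benjamini-Hochberg over all of them, and an adjusted p under 0.05 was called. Symbols came from the platform annotation, where 34958 probe sets carry 1 symbol, 932 several and 9211 none, and each gene was represented by its brightest probe set. Start regions came from RefSeq, GRCm38.p6. The catalytic subunits, the activators, Psma8 and Psmb11 were named whatever their values, with up to 5 called members per direction and comparison, up to 3 called genes per direction of each accompanying list, and the 10 genes most like the immunoproteasome mean. Psmd7, Psmd8, Psmd13, the members whose arrays did not overlap and the genes whose calls changed without the arrays of low 5′ signal were named after their values were seen. The members and lists were chosen with earlier results of these data known. Alternatives were the methods' filter of variance (the top 40%) and fold, other probe sets, array weights, other scaling, blocks for replicate number and for control poly-A transcripts, and leaving out arrays. Exact permutation tests of the differences between catalytic subunits, and the gene lists without the arrays of low 5′ signal, were added after seeing the data. The fits were tested on simulated data. The number of arrays limits the precision.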

Additional observations from a re-analysis of the deposited data

How the results depend on the processing

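The count of members called between α9−/− and wild type at P13, 1 as reported, was the least stable. It was 0 with the methods' filter and fold threshold, 0 with quantile normalization over 24 arrays, 0 without the arrays of low 5′ signal, 2 with the second brightest probe set, 2 with the poly-A transcripts as a block, 14 with array weights, and 0 to 4 when 1 array was left out. The methods' filter was taken over all 24 arrays here and may differ from that of the authors, who list the Psmd7 probe set as differing at P13. The replicate numbers pair no samples by the labels, and deviations of same-numbered arrays correlated at -0.62 to 0.59. With a replicate block the P13 count was 0 and the count between P60 and P13 in α9−/− was 2, against 1, and no other count moved by over 1.5 times.

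Array weights raised the age counts in α9−/− to 1 for P7 against P3, 5 for P13 against P7, 5 for P60 against P13 and 11 for P60 against P3, in wild type to 3, 20, 19 and 9 for the same steps, and the count of age courses that differ to 6. With deposited values, scaled apart for each age, it was 10 for P60 against P13 in α9−/−, and 9 for P13 against P7 and 21 for P60 against P13 in wild type. The second brightest probe set gave 1 for P7 against P3 in α9−/−. Without the arrays of low 5′ signal the counts were 1 for P7 against P3 and 2 for P60 against P13 in α9−/−, and 2, 2 and 1 for P7 against P3, P13 against P7 and P60 against P13 in wild type. Leaving out 1 array gave 4 to 5 for P60 against P3 in α9−/−, and in wild type 0 to 2 for P7 against P3, 0 to 3 for P13 against P7, 2 to 6 for P60 against P13 and 3 to 6 for P60 against P3. The counts by setting in this paragraph and the one before it stand without the share of all probe sets called under the same setting. A setting changes the calls of all probe sets, so these counts are not read as a result about the members. The causes were not tested.

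Between P3 and P60, Psmb8 minus Psmb5 changed by 0.81 in α9−/− and 1.19 in wild type with all probe sets of a gene averaged, against 1.39 and 1.84. Without the arrays of low 5′ signal Psmb10 minus Psmb7 changed by 0.61 in wild type, against -0.24, and the mean of the 3 pairs by 1.63, against 1.23. Leaving out 1 array, chosen after seeing the data, gave 1.27 to 1.55 in α9−/− and 1.72 to 2.02 in wild type for Psmb8 minus Psmb5, 0.95 to 1.61 and 1.88 to 2.40 for Psmb9 minus Psmb6, 0.36 to 0.53 and -0.53 to 0.31 for Psmb10 minus Psmb7, and 0.93 to 1.18 and 1.09 to 1.49 for the mean. No called member reversed. The rise of Psmb8 between P3 and P60 stayed called in 10 of 11 alternatives in each genotype, that of Psmb9 in wild type in 10 of 10, and the Psme1 difference at P13 in 5 of 13. The median difference of all probe sets at P13, α9−/− minus wild type, was -0.16 as deposited, -0.12 after quantile normalization and -0.24 with centred arrays.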
